A study of Mus musculus with 4 samples.

Results

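The 69 genes described here carry names of ion channel families and were taken, out of the 11993 genes in the authors' deposited table, by their symbols alone. A symbol had to begin with Kcn (potassium channels), Kctd, Cacn (voltage-gated calcium channels), Scn and a digit (voltage-gated sodium channels), Trpc, Trpm or Trpv and a digit (transient receptor potential channels), Clcn, Hcn and a digit, or P2rx (ATP-gated channels). Of the 69, 51 name subunits of channels or of ion exchangers of the same families, 15 are Kctd genes and 3 match by name only. These 3 are Kcnrg, the noncoding RNA Kcnq1ot1, and Trpc4ap, a partner of a Trp channel that forms no pore itself. Kctd proteins carry a domain related to the assembly domain of potassium channels but are no channels. Chromatin accessibility was measured with ATAC-seq, which uses the Tn5 transposase to cut and tag open DNA, in subcutaneous white fat of mice, kept frozen before use. There were 4 libraries, female 1 and female 2 from females and male 1 and male 2 from males, and male against female is the comparison the design names. All 4 were labelled wild-type; strain and age were not used here, and whether the libraries of a sex came from separate animals is not stated, so the spread behind p-values may be technical.

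Ion channels let ions pass through membranes and set the electrical state of a cell, its calcium entry and the ion content of its organelles. Most were studied in nerve and muscle, but fat cells also carry calcium-permeable Trp channels, ATP-gated P2rx channels and several potassium channels, and vessels, nerves and immune cells in fat bring their own. Open chromatin at a gene's start is common where that gene or a close neighbour can be transcribed, and it is not a measure of its RNA.

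A value for a gene was a peak height, the tag coverage at its peak scaled per library by the authors and averaged over all merged regions that the deposited table links to the gene. Libraries held 4049 to 10238 called intervals, fewer in both males than in both females, and read totals were not used here, so no counting error is attached to a height. On the scale log2(height + 9), the median of all 11993 genes was lower in males than in females by a difference of -0.63, and differences are therefore also given relative to that median. In bulk tissue, fewer cells of a type and less open DNA per cell cannot be told apart. Of 11 adipocyte markers, 7 were among the rows, and Adipoq, Fabp4, Lep and Plin1, which define the cell, were not. The summed height of those 7 was 243 to 289 in the females and 107 to 146 in the males. Summed heights of 5 of 12 Schwann cell and neuron markers were 107 to 127 in females and 38.9 to 75.3 in males, and those of 6 of 18 mammary epithelium markers 146 to 184 and 44.8 to 94.4. Sox10, Tubb3, Krt5, Krt8, Krt14 and Epcam were not among the rows. Male sums lay below female sums in each of these lists, as did most single genes of the table. Relative to all genes, the median difference was -0.13 for adipocyte, -0.00061 for Schwann cell and neuron and -0.34 for mammary epithelium markers. It was -0.25 for 4 of 10 smooth muscle and pericyte, 0.073 for 5 of 7 endothelium and -0.20 for 2 of 8 macrophage and leukocyte markers. For Mb, the only 1 of 8 skeletal muscle markers among the rows, it was -0.58. Acta2, Tagln, Cdh5, Kdr, Ptprc, Csf1r, Acta1 and Ckm were not among the rows. Spint2, St14 and Erbb3 were lower at a limma adjusted p under 0.05, as were 0.592% of all genes. Neither Spint2, St14 nor Erbb3 had a region within 1000 bp of its own start. Such a region was linked to 3 of 7 adipocyte, 2 of 6 mammary epithelium and 2 of 5 Schwann cell and neuron markers. The same held for 1 of 4 smooth muscle and pericyte, 1 of 5 endothelium and 0 of 2 macrophage and leukocyte markers, and not for Mb. The part of these cell types in the results was not tested.

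Promoter windows of 300 bases, reaching from 250 bases before to 50 after an annotated start, were found for 53 of the 69 genes in the RefSeq table (79 windows, build GRCm38.p6, which has the coordinates of mm10). A linked region overlapped 24 of these windows, of 22 genes. A selection of 7 is printed because the deposited peaks cover at least 181 bases of each and because they hold, between them, several of the words marked below. They do not span the range of base content. The Kctd12 window, for example, has 78% GC and 7 matches to GGGCGG, a word left unmarked here, and is not printed. The window of Kctd7, at chr5:130144633-130144932 on the + strand, lies wholly inside the region of this gene, one of the highest of the set. Those of Kctd5, at chr17:24073436-24073735 on the - strand, and Clcn6, at chr4:148038764-148039063 on the - strand, hold the ETS word. The window of Clcn3 lies at chr8:60983262-60983561 on the - strand, that of Trpm7 at chr2:126876212-126876511 on the - strand and that of Kcnj2 at chr11:111065914-111066213 on the + strand. Kcnq1ot1 starts inside Kcnq1, and its window lies at chr7:143296498-143296797 on the - strand. Sequences run 5′ to 3′ on the gene's strand, and capitals mark matches, on either strand, to CCAAT (the CCAAT box), CACGTG (the E-box), CCGGAAG (an ETS word), TGACGTCA (the cyclic AMP response element), TATAAA or TGCGCATG (an NRF1 word).
Kctd7: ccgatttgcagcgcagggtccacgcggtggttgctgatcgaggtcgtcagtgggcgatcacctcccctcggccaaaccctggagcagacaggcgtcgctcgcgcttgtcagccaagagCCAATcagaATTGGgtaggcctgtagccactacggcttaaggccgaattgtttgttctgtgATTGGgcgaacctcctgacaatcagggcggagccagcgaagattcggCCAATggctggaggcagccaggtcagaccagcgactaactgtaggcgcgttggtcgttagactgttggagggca
Kctd5: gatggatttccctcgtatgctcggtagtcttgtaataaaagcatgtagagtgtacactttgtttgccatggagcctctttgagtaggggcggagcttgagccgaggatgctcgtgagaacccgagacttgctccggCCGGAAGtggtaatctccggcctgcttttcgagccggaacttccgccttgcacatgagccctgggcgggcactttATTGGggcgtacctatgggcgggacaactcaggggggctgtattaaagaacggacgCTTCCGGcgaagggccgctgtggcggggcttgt
Clcn6: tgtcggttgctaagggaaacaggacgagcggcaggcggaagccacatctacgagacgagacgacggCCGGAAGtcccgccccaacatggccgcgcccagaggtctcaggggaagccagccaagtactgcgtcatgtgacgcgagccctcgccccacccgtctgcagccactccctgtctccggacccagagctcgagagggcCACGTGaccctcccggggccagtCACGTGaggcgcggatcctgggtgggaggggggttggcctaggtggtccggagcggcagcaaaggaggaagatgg
Clcn3: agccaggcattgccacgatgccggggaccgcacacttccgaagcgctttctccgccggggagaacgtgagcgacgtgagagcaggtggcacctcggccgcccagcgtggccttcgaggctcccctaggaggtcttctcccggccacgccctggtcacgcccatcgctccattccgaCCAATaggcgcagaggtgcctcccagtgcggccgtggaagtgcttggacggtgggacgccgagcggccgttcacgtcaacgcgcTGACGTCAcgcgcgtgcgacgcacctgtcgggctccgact
Trpm7: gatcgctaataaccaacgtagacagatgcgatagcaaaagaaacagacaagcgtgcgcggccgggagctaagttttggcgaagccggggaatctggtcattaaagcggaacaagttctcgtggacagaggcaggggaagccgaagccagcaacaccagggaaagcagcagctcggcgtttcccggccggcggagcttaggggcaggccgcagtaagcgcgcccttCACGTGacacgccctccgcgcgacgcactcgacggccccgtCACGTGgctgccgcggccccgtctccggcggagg
Kcnj2: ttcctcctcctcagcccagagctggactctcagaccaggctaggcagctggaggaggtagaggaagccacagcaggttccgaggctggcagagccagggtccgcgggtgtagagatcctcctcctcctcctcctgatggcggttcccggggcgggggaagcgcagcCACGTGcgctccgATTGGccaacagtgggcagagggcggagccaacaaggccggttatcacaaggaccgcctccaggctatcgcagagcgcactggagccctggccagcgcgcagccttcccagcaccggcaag
Kcnq1ot1: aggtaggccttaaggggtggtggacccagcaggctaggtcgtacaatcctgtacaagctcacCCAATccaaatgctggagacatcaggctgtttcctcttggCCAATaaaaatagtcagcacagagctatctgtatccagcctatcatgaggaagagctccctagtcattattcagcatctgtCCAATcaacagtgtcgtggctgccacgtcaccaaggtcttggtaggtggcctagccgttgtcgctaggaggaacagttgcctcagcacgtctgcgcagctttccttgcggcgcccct
Kctd7 held 4 matches to CCAAT and Kcnq1ot1 3. Clcn6 and Trpm7 each held 2 E-boxes, Kcnj2 held 1, Kctd5 held 2 ETS words, and Clcn3 held 1 cyclic AMP response element. No printed window held TATAAA or the NRF1 word. No matches of different motifs overlapped. Among all 32851 RefSeq windows, 37.4% held CCAAT, 7.15% the E-box, 8.86% the ETS word, 1.79% the cyclic AMP response element, 13.6% TATAAA and 2.12% the NRF1 word. Over all 79 windows of the genes described here, the shares were, in that order, 31.6%, 7.59%, 7.59%, 1.27%, 7.59% and 1.27%. The 7 printed windows were picked and do not give these rates. A match is a description of letters and not evidence of binding.

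Where the regions lie sets what the heights of these genes stand for. A region within 1000 bp of a gene's own annotated start was linked to 14 of the 51 channel subunit genes (27.5%), against 13 of the 15 Kctd genes (86.7%) and 72.1% of all genes of the table. For 23 channel subunit genes (45.1%), at least 1 linked region lay within 1000 bp of the start of another protein-coding gene and none within that distance of their own, against 16.1% of all genes and 0 of the Kctd genes. For the remaining 14 channel subunit genes (27.5%), no protein-coding start was that near, against 11.8% of all genes. These are called away from starts below, although noncoding starts of other genes were not counted. Kcnq1, with a region at the Kcnq1ot1 start, is among them. The 69 genes were linked to 88 merged regions of 12477, and 31 of them had a region that holds the start of another coding gene. Regions at another gene's start had a median width of 374 bp, those away from starts 163 bp and those at the gene's own start only 167 bp. Where a region lay at both its gene's own and another start, the median was 439.5 bp.

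**Figure D1:**
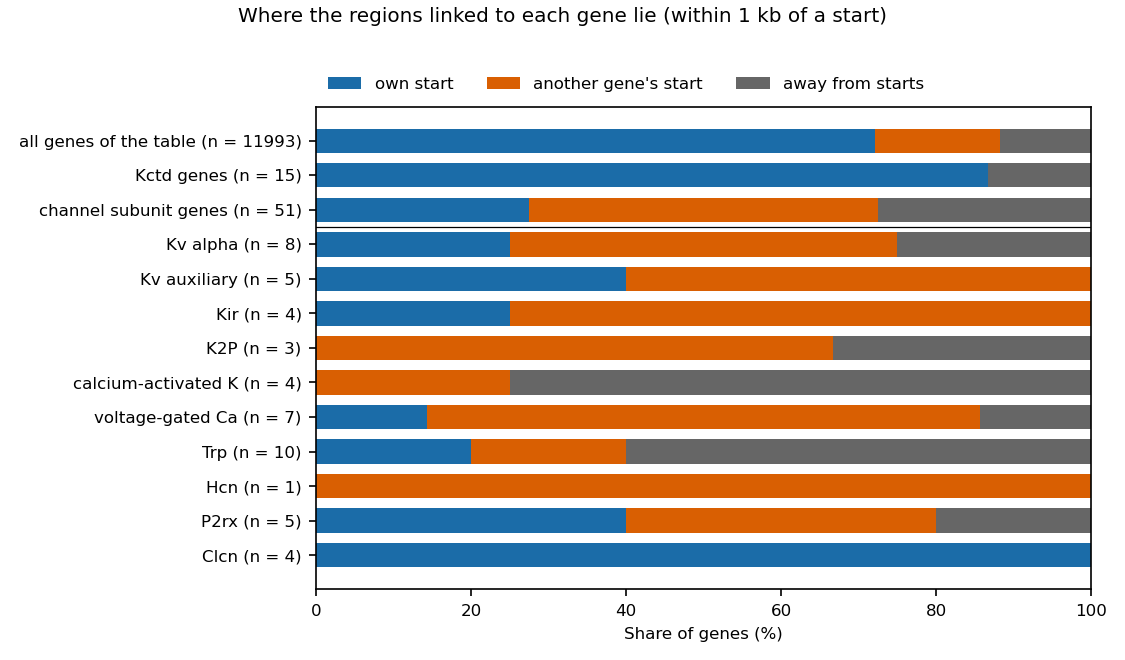
Bars show, for all genes of the table, for the Kctd and channel subunit genes and for each channel family, the share of genes in percent with a region within 1000 bp of their own start, of another protein-coding gene's start only, or of neither. The own-start share is 72.1% for all genes and 27.5% for channel subunit genes.

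The neighbours at these starts include genes used in most cells. The Cacnb1 region holds the start of Rpl19, which encodes a ribosomal protein. The Cacna1d and Cacna1c regions lie at Dcp1a and Dcp1b, which encode parts of the mRNA decapping complex. The region of Kcnip2 lies at Mgea5, the gene of the enzyme that removes O-GlcNAc from proteins, that of Kcnh4 at Rab5c, an endosomal GTPase gene, and that of P2rx3 at Ssrp1, a histone chaperone gene. Of the 69 genes, 23 (33.3%) shared all their regions with a gene outside the set, against 39.5% of all genes that share all regions with some other gene. No pair within the set shared all its regions.

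Coverage by family followed a wide range. Of 174 RefSeq protein-coding genes in the channel families, 51 were in the table (29.3%), while 15 of 22 Kctd genes were (68.2%) and 48.7% of all protein-coding genes. The highest share among channels was that of the P2rx genes, 5 of 7, followed by 10 of 21 Trp genes and 4 of 9 Clcn genes. Pore-forming voltage-gated potassium channel genes had 8 of 40 and voltage-gated calcium channel genes 7 of 26. Of 14 Scn genes, 0 were among the rows analysed here. Which genes reach the table depends on where peaks were called, so the counts describe the table and not expression.

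The CpG content of promoter windows differed with the place of the region, while the median GC content was 61.0% for own starts, 61.5% for another start and 54.5% away from starts. The median ratio of observed to expected CpG was 0.717 in the 39 promoter windows of genes with a region at their own start, 0.491 in the 24 of genes whose region lies at another start, and 0.349 in the 16 of genes with regions away from starts. The median over all 32851 windows was 0.384. Kctd windows had a median of 0.879 and 78.9% of them held GGGCGG, the GC box, against 47.4% of channel subunit windows and 35.7% of all windows. The ETS word was in 21.1% of the 19 Kctd windows and in 3.51% of the 57 channel subunit windows. All 19 Kctd windows belong to genes with a region at their own start, so the median of 0.717 mixes place with family. Some genes have several windows that share a locus, so windows are not independent and no test is given.

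**Figure D2:**
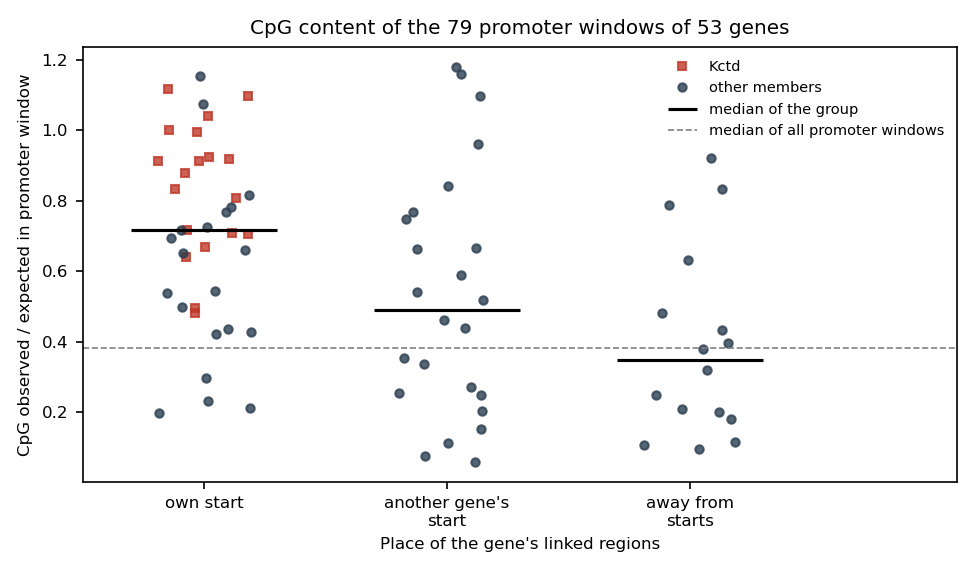
Points are promoter windows, placed by where the gene's linked regions lie, with the ratio of observed to expected CpG on the vertical axis and a black line at each group's median. The medians are 0.717, 0.491 and 0.349, and the dashed line marks the 0.384 of all windows.

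Between the sexes, most of the 69 genes had lower heights in males, by about the same amount as the rest of the table. With limma across all genes, 0 of 69 passed an adjusted p of 0.05 as lower in males, where 0.592% of all genes did, and 0 passed as higher in males, where the share of all genes was 0%. At an unadjusted limma p under 0.05, 22 of 69 were lower (31.9%, against 31.4% of all genes) and 0 higher. Both males lay below both females for 54 of 69 genes, where 76.4% of all genes did so, and both males above both females for 0 of 69, against 0.35%. The other 15 of 69 overlapped, against 23.2% of all genes. The median difference of the 69 was -0.63, which put it -0.0049 from the median over the whole table. The spread in this test comes almost wholly from genes of like height and not from each gene's own samples.

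Averaged over the 69 genes, the height was 40.3 and 30.8 in females 1 and 2, against 25.4 and 16.5 in males 1 and 2. These means fall in that order over libraries, and no male mean reached a female mean. The ratio of the male to the female mean was 0.589 (all genes: 0.574), with a two-sided exact permutation p of 0.33, the smallest that 2 against 2 libraries can give. With each height divided by its library's median over all genes, the ratio was 1.05, so the direction of the mean rests on the library-wide shift. The Kctd genes had a ratio of 0.638 and the channel subunits 0.572, a difference that was not tested. Female 1 was the highest library for 57 of 69 genes (82.6%, against 79.7% of all genes) and male 2 the lowest for 61 (88.4%, against 83.9%). The libraries of a sex thus differed from each other as well as from those of the other sex. Without male 1, which leaves male 2 as a lone sample assumed to vary like the others, 33 of 69 passed as lower, where 53.3% of all genes did, and 1 (Cacnb1) passed as higher, where 0.233% did. Without any of the other 3 libraries, 0 passed in either direction.

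**Figure D3:**
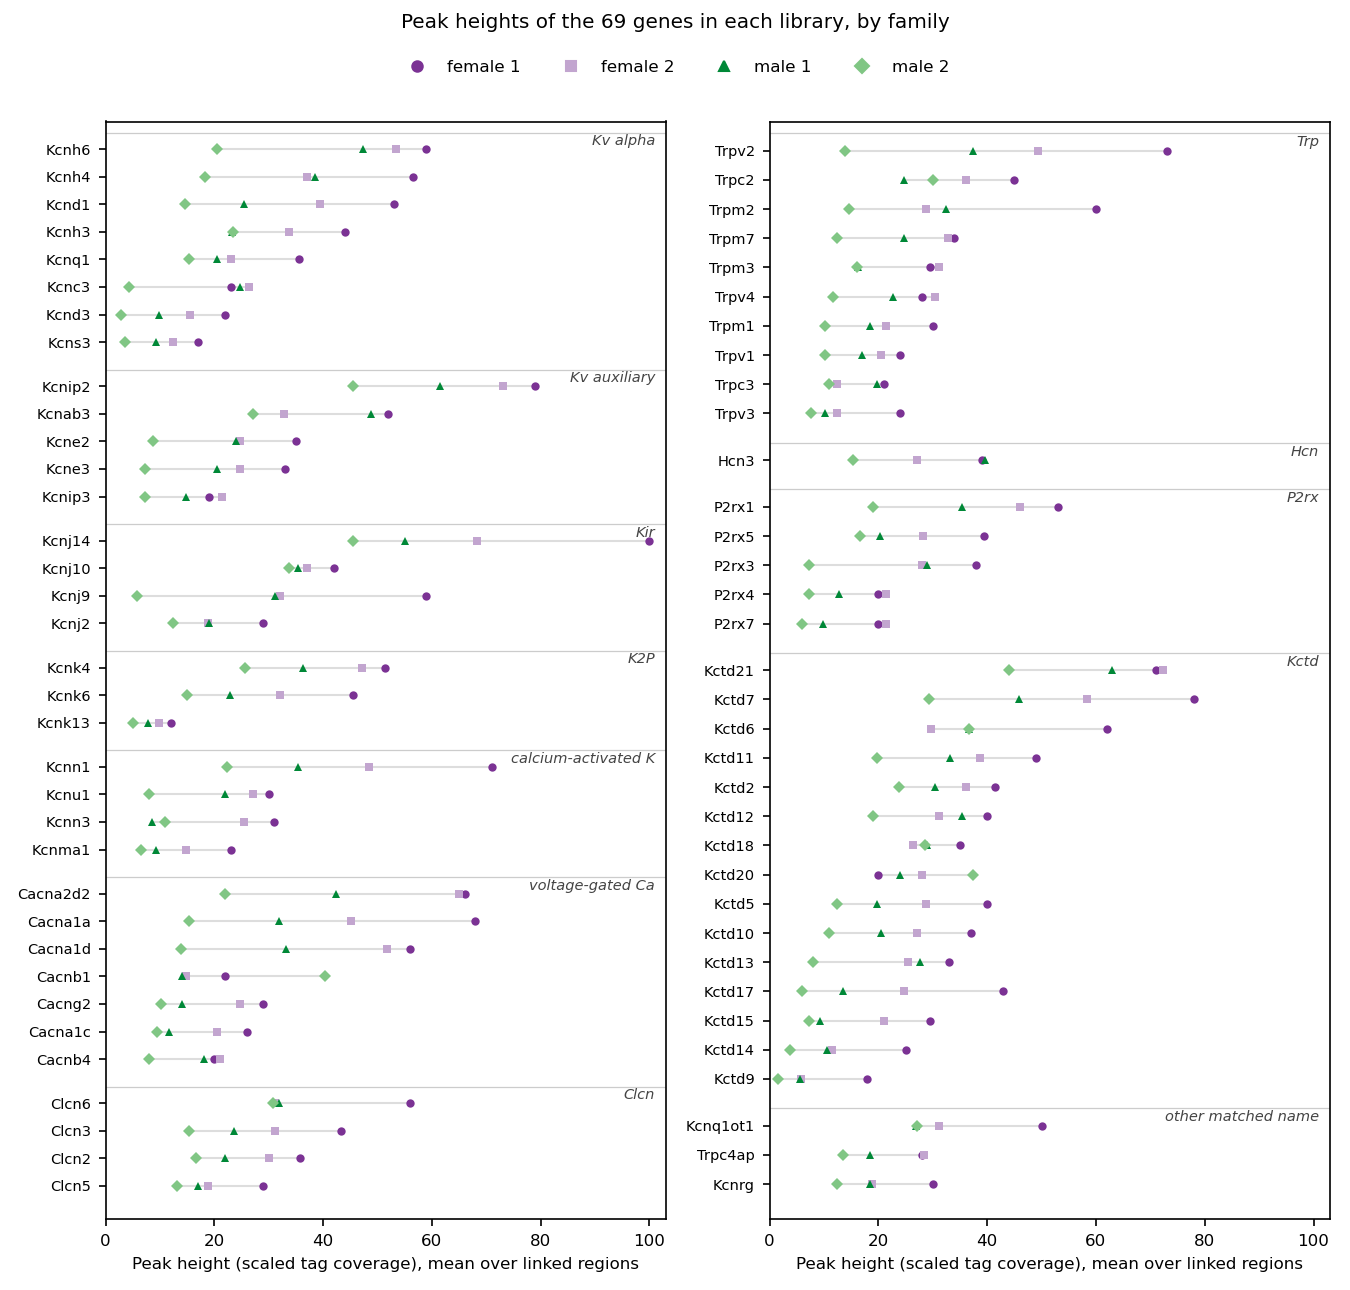
Each row is a gene, grouped by family and ordered by mean height, and each marker is the peak height (scaled tag coverage, mean over linked regions) in 1 library. Female 1 is the rightmost marker for 57 of the 69 genes and male 2 the leftmost for 61.

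Peaks themselves were called in all 4 libraries for 30 of 69 genes (43.5%, against 35.9% of all genes). In both females and neither male, peaks were called for 8 (11.6%), where 11.7% of all genes showed that pattern, and in both males and neither female for 0, where 0.475% of all genes did. A single library held the only peak for 19 genes (27.5%, against 19.8%). It was female 1 for 14 (20.3%, against 11.8% of all genes) and female 2 for 5 (7.25%, against 4.34%). It was male 1 for 0, against 1.43%, and male 2 for 0, against 2.15%. A peak that is not called does not show closed chromatin, since both males had fewer called intervals than both females.

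Among pore-forming voltage-gated potassium channels, the family that repolarizes excitable cells, 8 genes were measured. The highest was Kcnh6, of the Erg branch, with heights of 59 and 53.4 in females 1 and 2 and 47.4 and 20.6 in males 1 and 2, the order used for all later sets of 4 heights. Both males lay below both females, male 2 far below the rest, and the region (chr11:106036637-106036975) holds the start of Dcaf7, 28434 bp from the start of Kcnh6. Kcnd1 and Kcnd3, which encode A-type channels, had differences of -0.94 and -0.88, with limma adjusted p of 0.13 and 0.11. The Kcnd1 region lies at the start of Otud5 on the X chromosome, while the Kcnd3 region lies inside Kcnd3, 190038 bp from its start, with a peak in female 1 only. Kcnq1, a slow delayed rectifier of heart and epithelia, was linked to the region at the Kcnq1ot1 start (chr7:143296458-143296766), whose promoter is printed above with 3 CCAAT boxes. Summit heights there were 50, 31.2, 26.9 and 27.2, so female 1 stood highest and both males lay close together. Kcnq1ot1 is an imprinted antisense noncoding RNA, and without strand or allele information the region cannot be assigned to either gene. The second Kcnq1 region, downstream of the gene, had a peak in female 1 only, with a height of 21.

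Auxiliary subunits, which bind the pore proteins and change their gating or transport, had 5 measured genes. Kcnip2, a calcium-binding partner of A-type channels, had heights of 79, 73.2, 61.5 and 45.5, the second highest mean of the 69 genes. Both males lay below both females, and its difference was -0.46, or 0.17 relative to all genes (limma adjusted p = 0.35). Its single region lies 31866 bp from its start, at the start of Mgea5, so the height cannot be assigned to either gene. Kcnip3 had peaks in both females only, with heights of 19 and 21.4 in females and 14.8 and 7.34 in males, near an internal annotated start. Kcne3, a small single-span subunit, and Kcne2 had differences of -0.78 and -0.67, and neither passed the test. The Kcne3 region, at its own start, had a peak in female 2 only. The Kcne2 region holds the start of Smim11, 5550 bp from the start of Kcne2.

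The inward rectifiers, which hold the resting potential, had 4 measured genes and both the highest and one of the most different heights. Kcnj14 had 100, 68.2, 55.1 and 45.5, the highest mean of the 69 genes. The males lay below the females without overlap, and the difference of -0.63 equalled that of the median gene (limma adjusted p = 0.22). Its region (chr7:45814266-45814720) holds the start of Cyth2, a guanine nucleotide exchange factor gene, 10027 bp from the start of Kcnj14. Kcnj9, a subunit of channels opened by G proteins, had 59, 32.1, 31.1 and 5.87. Its region holds the start of Igsf8, 16892 bp from the start of Kcnj9, so the height cannot be assigned to either gene. A peak was called there in female 1 only. Male 1 nearly met female 2, and only male 2 was far lower. The difference was -1.11 (SE 0.39, n = 2 per sex, limma adjusted p = 0.099), and over the 4 pairs of a male and a female library it ran from -2.19 to -0.034. Kcnj10, a potassium channel of glia and kidney, had 42, 37.0, 35.3 and 33.8. It had one of the smallest differences without overlap, -0.15, or 0.48 above the median of all genes, and its region is that of Pigm. Kcnj2, the classical inward rectifier of muscle, is the one with a region over its own start, the window printed above. Peaks were called there in 3 libraries at 29, 18.9 and 19.1, and none in male 2.

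The 3 two-pore-domain potassium channels, which carry background current, had males below females in 3 of 3 cases, against 76.4% of all genes. Kcnk4 is linked to 3 regions, all at starts of neighbours. Summits were 75, 51.0, 47.4 and 38.2 at Esrra, which encodes an oestrogen-related receptor of energy metabolism, and 43, 62.5, 43.8 and 20.6 at Bad and Gpr137, where female 2 and not female 1 was highest. Kcnk6 joins the starts of Yif1b, with summits of 60, 42.7 and 30.4 and none in male 2, and of Catsperg1, with none in male 1. Kcnk13 had the lowest mean of these 3, with 12, 9.86, 7.78 and 5.14, from a region inside the gene 97461 bp from its start. These heights are near the low end of the table, and the difference was -0.37 (limma adjusted p = 0.35).

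Of the genes grouped as calcium-activated potassium channels, 4 of 4 had males below females, as did 76.4% of all genes. Of these, 3 had regions only away from protein-coding starts. Kcnn3, an SK channel that calcium opens without a change in voltage, had 31, 25.5, 8.48 and 11. The females were close to each other, as were the males, and the sexes did not overlap. Its difference was -0.99 (SE 0.36, n = 2 per sex, limma adjusted p = 0.11), and the 4 pairs ran from -1.19 to -0.79, a narrower range than for the other genes with large falls. The region (chr3:89578897-89579093) lies inside Kcnn3, 58733 bp from its start, is linked to no other gene, and had peaks in both females only. Kcnn1 had 71, 48.5, 35.3 and 22.4, mainly from a region at the start of Arrdc2, which encodes an arrestin-domain protein. Kcnma1, the large-conductance channel of smooth muscle and nerve, had a single peak in female 1 at 23, inside the gene. Kcnu1, a channel known from sperm, had a single peak in female 2 at 27.1, in a region also linked to Ash2l.

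Voltage-gated calcium channel genes numbered 7, and 6 of them (85.7%) had males below females, against 76.4% of all genes. Cacna2d2, an auxiliary subunit that brings the pore to the membrane, had 66, 64.9, 42.4 and 22. The females were nearly equal and both males lower, with a difference of -0.90 (limma adjusted p = 0.14), but the region holds the start of Tmem115. Cacna1a, the pore of P/Q-type channels at nerve endings, had 68, 45.2, 31.8 and 15.4. The 4 libraries were spread widely without overlap of the sexes, and the difference was -1.03 (SE 0.41, n = 2 per sex, limma adjusted p = 0.11). Its region (chr8:84639258-84639709) lies near the 3′ end of the gene, 223894 bp from its start and 23143 bp from the nearest other coding start. Cacna1d, an L-type pore, had 56, 51.8, 33.2 and 14, with a difference of -1.01 (SE 0.40, n = 2 per sex, limma adjusted p = 0.12) at the start of Dcp1a. Cacna1c, the L-type pore of heart and smooth muscle, had 26, 20.6, 11.7 and 9.55, with peaks in the females only, beside the start of Dcp1b. Cacng2, an auxiliary subunit that also moves glutamate receptors, likewise had peaks in both females and neither male. So did the beta subunit gene Cacnb4, but in separate regions, in female 1 at the Arl5a start (30.0) and in female 2 inside Cacnb4 (19.7). Neither Cacng2 (-0.76) nor Cacnb4 (-0.46) passed the test.

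On the deposited scale, Cacnb1 and Kctd20 were the only 2 of the 69 genes with a positive difference, whereas with centred libraries 16 of the 41 genes named by rule turned positive too. Both were singled out after their values were seen. Cacnb1, the beta subunit of the skeletal muscle calcium channel, had 22, 14.8, 14.1 and 40.4, with its region at the Rpl19 start. Male 2 alone was high, male 1 was the lowest, and its difference was 0.32 (limma adjusted p = 0.47), which became -0.23 without male 2. Kctd20 had 20, 27.9, 24 and 37.4, again highest in male 2 and overlapping between sexes, with a difference of 0.26 (limma adjusted p = 0.56).

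**Figure D4:**
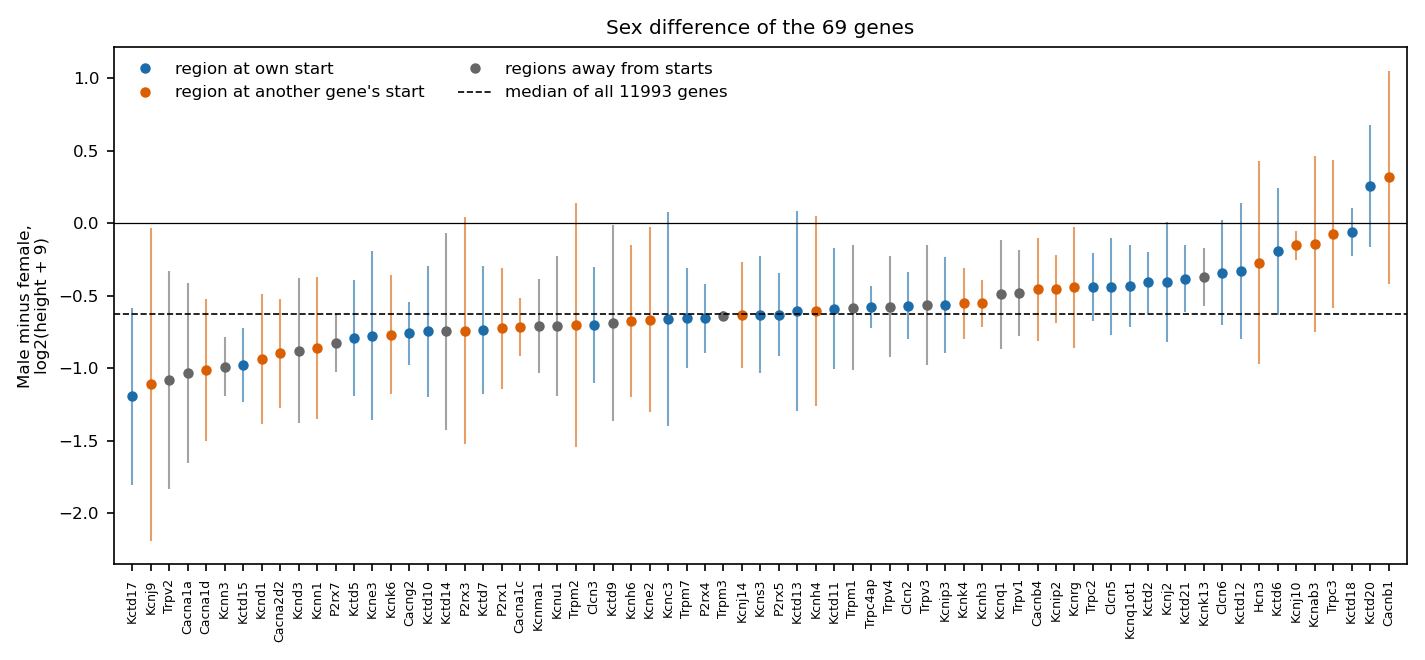
Points are the male minus female difference on the scale log2(height + 9) for each gene, coloured by where its regions lie, and lines span the 4 pairs of a male and a female library. On this deposited scale, not centred by library, only Cacnb1 and Kctd20 lie above 0, and the dashed line is the median of all genes, -0.63.

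Trp channels, which open to heat, lipids, mechanical or chemical stimuli and let calcium in, had 10 measured genes. Of these, 6 had regions only away from protein-coding starts. Trpv2, a calcium-permeable channel studied in brown and white fat cells and macrophages, had 73, 49.3, 37.5 and 14. All 4 libraries differed widely, the sexes did not overlap, and no peak was called in male 2. The difference was -1.08 (SE 0.41, n = 2 per sex, limma adjusted p = 0.11), or -0.45 relative to all genes. Its region (chr11:62602659-62602877) lies downstream, 27032 bp from the gene's start. Snord49a, Snord49b and Snord65, genes of small nucleolar RNAs, and also 2410006H16Rik and Fam211a are linked to the same region. The height therefore cannot be assigned to Trpv2 alone. Trpm7, a channel fused to a kinase and known for magnesium entry, had 34, 32.9, 24.7 and 12.5 with a region over its own start, and its window printed above holds 2 E-boxes. The females were nearly equal and male 2 lowest, and the difference of -0.66 lay at the median of all genes. Trpc2 had 45, 36.2, 24.7 and 30.1, and here male 1 and not male 2 was lowest. Its region lies 175 bp from the deposited Trpc2 start and holds the starts of Rnf121, Xndc1 and Xntrpc. The RefSeq promoter window of Trpc2 lies elsewhere (chr7:102082866-102083165) and is not overlapped by that region. Trpv1, the capsaicin receptor, had a single peak in female 2 at 20.6, 1654 bp before its start. Trpv4, a channel that responds to osmotic and mechanical stimuli, had one region with a peak in male 1 only (19.8, inside the gene) and one upstream with peaks in both females and male 2 (37, 35.3 and 12.5). The region inside Trpv4 was one of 3 linked regions with peaks in males only, beside one each of Clcn2 and Kcnh4.

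Hcn3, a pacemaker channel, was the only Hcn gene measured, with 39, 27.1, 39.6 and 15.4 at the start of Clk2, a splicing kinase gene. Male 1 was the highest library and male 2 the lowest, so the sexes overlapped.

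ATP-gated P2rx channels had 5 measured genes, 4 with males below females (80%, against 76.4% of all genes). P2rx5, a gene used as a surface marker of brown and beige fat cells, is linked to 3 regions. The region over its own start had a peak in female 1 only, with a height of 25, while the region at the starts of Emc6 and Tax1bp3 had summits of 66, 41.1, 34.6 and 32.3. The gene's own values, 39.3, 28.2, 20.3 and 16.6, are thus mostly the height of the neighbours' start. P2rx4 and P2rx7, neighbours on chromosome 5 with roles in macrophages, had nearly the same heights in the females, 20.0 and 21.4 for each. P2rx4 had a peak in female 2 at its own start and P2rx7 one in female 1, 6718 bp upstream. Their differences were -0.66 and -0.82 (limma adjusted p of 0.17 and 0.13). P2rx1, a receptor of platelets and smooth muscle, had 53, 46.0, 35.3 and 19.1 at the start of Camkk1. P2rx3, a receptor of sensory nerves, had peaks in both females only, at 38 and 27.9, in a region at the Ssrp1 start.

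The Clcn genes encode the chloride channel Clcn2 and the chloride-proton exchangers of endosomes and lysosomes Clcn3, Clcn5 and Clcn6, and all 4 had a region at their own start. Clcn6 had 56, 31.2, 31.8 and 30.8. Female 1 alone was high, the other 3 libraries lay within a narrow range, and female 2 fell between the males. Clcn3 had summits of 57, 43.6, 36.1 and 22 at its first start, 35, 33.7, 22.6 and 16.2 at the start of Nek1, and 38 in female 1 only at a second, internal start. Clcn5, on the X chromosome, had 29, 18.9, 17.0 and 13.2, with a peak in female 1 only. Its difference was -0.44 (limma adjusted p = 0.32), one of the smaller falls without overlap.

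**Figure D5:**
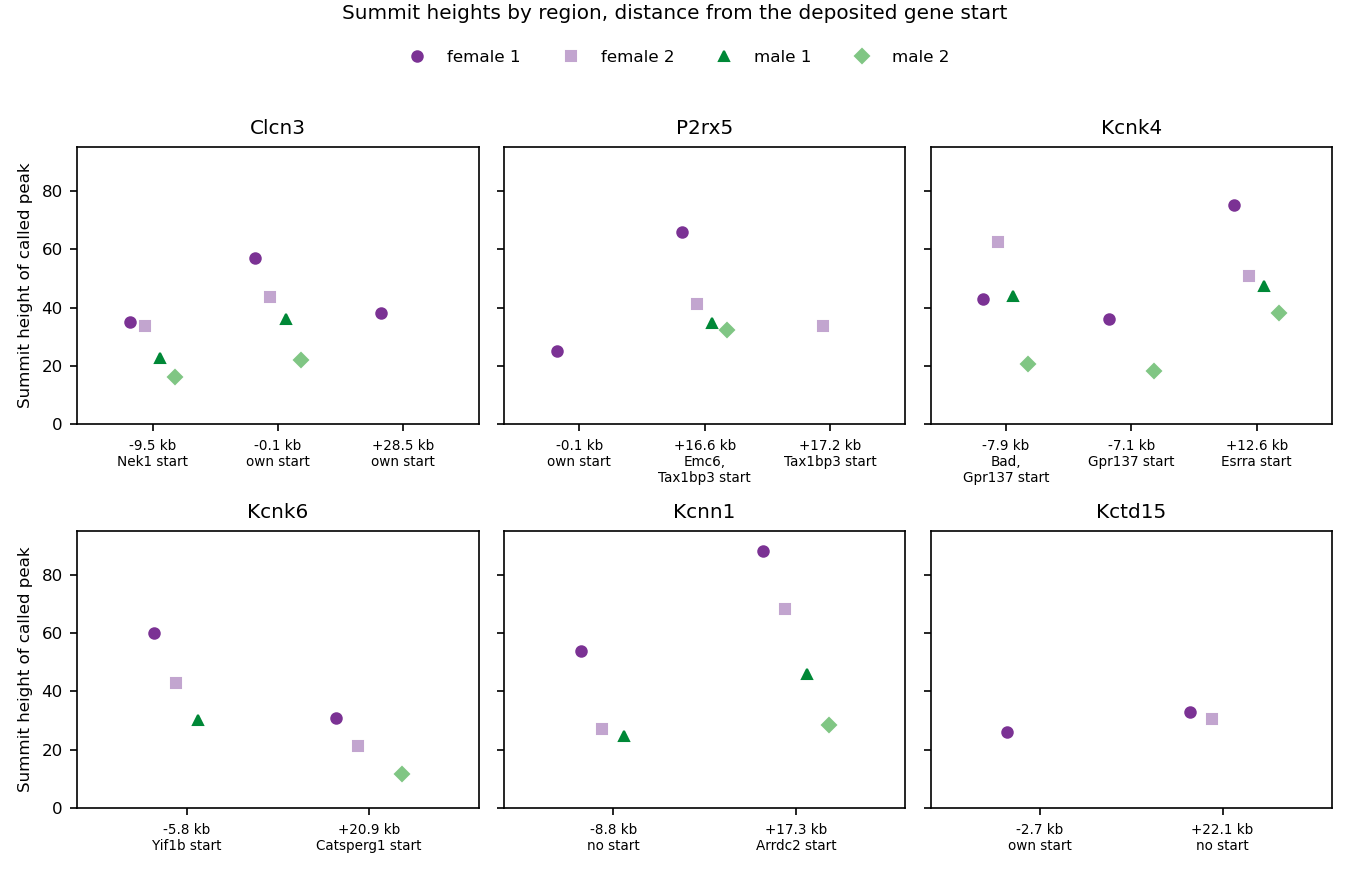
Each panel is a gene with 2 or 3 linked regions, ordered by distance in kb from the deposited gene start, and markers are the summit heights of the peaks called in each library, with no marker where none was called. For P2rx5 the own-start region has 1 peak, at 25, and the highest summit, 66, lies at the starts of Emc6 and Tax1bp3.

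The 15 Kctd genes, many of which encode adaptors that bring substrates to ubiquitin ligases, were measured mostly at their own starts. Kctd21 had 71, 72.3, 62.9 and 44.1, and Kctd7 had 78, 58.4, 45.9 and 29.4. In both, the males lay below the females, and the differences were -0.39 and -0.74 (limma adjusted p of 0.42 and 0.18). The Kctd21 region also holds the start of Usp35, a deubiquitinase gene, whereas that of Kctd7 (chr5:130144555-130145139) holds only its own start, with the 4 CCAAT boxes shown above. Kctd17 had 43, 24.7, 13.4 and 5.87, each library well below the one before. Its difference of -1.20 (SE 0.36, n = 2 per sex) was the largest fall and had the smallest limma adjusted p of the 69 genes, 0.078, which misses the threshold. Relative to all genes it was -0.57, the region (chr15:78428582-78428665) lies over its own start, and a peak was called in female 1 only. Without the trend in limma's variance, Kctd17 and Kcnj9 passed the threshold, 2 of 69 genes (2.90%), where 3.47% of all genes did.

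Kctd15, a gene near which human variants are linked to body weight, had 29.5, 21.0, 9.19 and 7.34 with peaks in both females and neither male. The sexes did not overlap, and the difference was -0.98 (SE 0.35, n = 2 per sex, limma adjusted p = 0.10). It rests on a region 21970 bp from its start, downstream of the gene, with summits of 33 and 30.4 in the females, and on one at an annotated start with a peak of 26 in female 1. Kctd5, which limits signals from G protein subunits, also had peaks in both females only, at 40.0 and 28.8, over the window with 2 ETS words. Kctd2, with its region beside the start of Atp5h, had 41.5, 36.2, 30.4 and 23.9, a difference of -0.41 that lay 0.22 above the median of all genes. Kctd6 had 62, 29.6, 36.8 and 36.7, so that female 1 stood alone and female 2 was lowest. Its difference of -0.19 became 0.24 without female 1. Beside Kctd6 and Kctd20, Kctd12, Kctd13 and Kctd18 overlapped between sexes, which makes 5 of the 15, against 23.2% of all genes.

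Medians by place lay close together. The median relative to all genes was 0.037 for the 29 genes with a region at their own start. It was -0.021 for the 24 at another protein-coding start and -0.070 for the 16 away from both. All genes of the table away from both had a median of -0.042. Kcnq1, with a region at the noncoding Kcnq1ot1 start, counts among the 16. Of those 16, all had both males below both females, against 76.8% of all genes away from starts, and 10 (62.5%) had a peak in a single library, against 53.3%. A further list of channel and transporter genes outside these names had 56 of 122 members measured, with 0 passing limma's adjusted threshold, 15 (26.8%) lower at an unadjusted p under 0.05, where 31.4% of all genes were, 0 higher, and a median relative difference of -0.033. Its 3 largest falls were those of Tmem175 (-1.07), a lysosomal potassium channel gene, Best3 (-1.06) and Lrrc8b (-1.01), a part of volume-regulated anion channels.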

How the data were processed

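Nuclei from frozen, ground fat were tagged with Tn5 and the DNA amplified, per the labels' protocols. The tools BWA and MACS2 2.1.0 and the build mm10 stand, without roles, in the record, per the submitters' processing notes. For filters, removal of duplicates and a Tn5 shift, the steps taken were not given in the sources used. The authors deposited heights of tag coverage (a signal scaled per library, written with a decimal comma) per gene, peak intervals per library and merged regions, per the file headers. Of heights at genes with 1 region and a called peak, 97.2% equalled the deposited summit within 0.01. In all, 0 columns of per-library values went unused.

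Genes were chosen by symbol. Members, gene lists and tests were chosen with earlier results of these data known. Heights were tested as log2(height + 9) with limma 3.58.1 (trend) in R 4.3.3 over 11993 genes, 2 libraries a sex, without a replicate block, with Benjamini-Hochberg adjusted p under 0.05 as threshold. The constant 9, close to the 5th percentile of the positive heights, makes changes of low genes look smaller. The test was tried on simulated data. Depth is unknown, and n = 2 limits the precision.

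Regions were placed within 1000 bp of RefSeq and deposited starts, and exon and intron positions were not used here. Motifs were searched on both strands. Genes are named by rule: any past the threshold; the 6 largest and 6 smallest falls without overlap; the 5 highest; those with peaks in both libraries of 1 sex only; the 2 highest of each family; and genes known in fat or its vessels. A further 11 members (Cacnb1, Kcnd1, Kcnd3, Kcne2, Kcne3, Kcnj2, Kctd6, Kctd12, Kctd13, Kctd18 and Kctd20) were named after their values were seen, and Clcn2, Kcnh4, Kcnrg and Trpc4ap appear for place or identity. Alternatives covered the constant, a filter, centring, quantile normalization, the block, the variance settings and each library left out. Python 3.11.15, pandas 2.3.3, numpy 2.4.6, scipy 1.17.1 and matplotlib 3.10.9 were used.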

Additional observations from a re-analysis of the deposited data

How the results depend on the processing

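No member passed as lower in males in the test as designed. The count became 42 with the replicate block (60.9%, against 57.7% of all genes) and 2 without the variance trend (2.90%, against 3.47%), and 0 to 33 with each library left out in turn (33 without male 1). The count passing as higher was 0 to 1 in the same runs. What equal library numbers share is not labelled. Gene by gene, deviations of same-numbered libraries were nearly unrelated (r = 0.017 over all genes), but this r ignores the shared shift: in both sexes the number 1 library had the higher mean over members (40.3 against 30.8 and 25.4 against 16.5). Whether the numbers pair samples is therefore unknown. The median difference relative to all genes was -0.029 with a constant of 1, 0.015 with 36, 0.022 with low heights left out, 0.037 over members with a region at their own start, and 0.0036 to 0.036 with a library left out. It was -0.016 with a stricter reading of the naming pattern, an alternative chosen after seeing the data. The male to female ratio of mean heights, 0.589, became 1.05 once each height was divided by its library's median, since this removes the library-wide shift. Of 41 genes named by rule, 17 changed sign in some setting. With centred libraries and with quantile normalization, log2 differences turned positive for Cacnb4 0.16 and 0.10, Clcn5 0.18 and 0.15, Clcn6 0.28 and 0.28, Hcn3 0.34 and 0.36, Kcnip2 0.16 and 0.16, Kcnj10 0.46 and 0.45, Kcnk13 0.25 and 0.19, Kcnk4 0.064 and 0.090, Kcnq1 0.13 and 0.12, Kcnq1ot1 0.18 and 0.18, Kctd2 0.21 and 0.23, Kctd21 0.23 and 0.26, Trpc2 0.17 and 0.16, Trpv1 0.14 and 0.10, Trpv4 0.042 and 0.027. Kcnip3 was 0.055 when centred and Kcnh6 0.013 after quantile normalization. With a library left out, Clcn6 ran from -0.69 to 0.0030 and Hcn3 from -0.77 to 0.22. Of the 11 further genes named, run after their values were seen, 6 changed sign: centred and quantile values were 0.21 and 0.19 for Kcnj2, 0.29 and 0.31 for Kctd12, 0.56 and 0.55 for Kctd18 and 0.42 and 0.41 for Kctd6, and Kctd13 was 0.011 when centred. With a library left out, Kctd18 ran from -0.22 to 0.099, Kctd6 from -0.63 to 0.24 and Cacnb1 from -0.23 to 0.86. No other gene of either group changed sign in these settings. Depth is unknown, and with 2 libraries a sex no exact test can go below p = 0.33.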
